A study of Mus musculus with 18 samples.

Results

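The data described here are 12 libraries of adipocyte RNA from mouse epididymal white adipose tissue (eWAT), out of 18 libraries in the study. They were divided by the replicate number in their labels. Replicates 1 and 2 of both genotypes (4 libraries) were set against replicates 3 to 6 (8 libraries), with the genotype as a term, and the same difference was taken inside WT (2 libraries against 4) and inside FI3KO (2 against 4). The labels give no meaning to the numbers beyond calling each library a biological replicate, and no date, cage or batch. The replicate numbers at which to split were chosen by gene expression in these same 12 libraries, which separates along them, so differences between the sets are given as values with no test.

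All 12 libraries came from C57BL/6 mice fed a high-fat diet (HFD) for 8 weeks at thermoneutrality. WT samples (6) are from Ad-NuTRAP mice, which carry a GFP-tagged ribosomal protein in adipocytes. FI3KO samples (6) are from FI3KO-Ad-NuTRAP mice, which carry the same tag and in which Irf3, an inflammatory transcription factor, is deleted in adipocytes. The study's methods list IRF3 floxed mice and Adipoq-Cre, a Cre line driven by an adipocyte promoter, and describe the metabolic studies as done in males. The age and sex of these 12 animals are not given in their labels. The other 6 libraries are of adipocytes differentiated in culture from the stromal vascular fraction (SVF). Of these, 3 are FI3OE (labelled AAV-Cre) and 3 are WT (labelled AAV-GFP). Per the paper, these cells were infected with a virus carrying Cre or GFP alone, and FI3OE cells express constitutively active IRF3. The mean over all 6, which mixes both treatments, is used below as an outside reference only.

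In translating ribosome affinity purification (TRAP), tissue is homogenised and ribosomes that carry the tag are pulled down with an antibody to GFP, so that the RNA recovered is mostly that being translated in the tagged cell type. Adipose tissue also holds macrophages, endothelial cells, pericytes, fibroblasts and mesothelial cells, and eWAT lies against the epididymis. RNA from untagged cells and from nuclei is carried along at a low level in such pulldowns. Adipocytes themselves change state with feeding, insulin, catecholamines, stress of handling and inflammation, and each of these states has well-known marker genes.

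Libraries held 25259869 to 40490283 estimated reads on genes. Adipoq, which encodes adiponectin and defines adipocytes, stood between 1580 and 3940 normalised counts per 1000000 reads (CPM, scaled by the trimmed mean of M-values) in all 12. For Irf3, the gene total was 12.7 to 22.7 CPM over the 12 libraries and did not separate the genotypes, but its 1429-nt transcript Irf3-202 had 0 estimated reads in all 6 FI3KO libraries and 163.6 to 388.1 in WT. A short 369-nt transcript, Irf3-211, was estimated at 89.9 to 175.3 reads in FI3KO libraries, with no WT library above 7.6. Both sets therefore carry the genotype that their labels state.

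A first difference between the sets is in how close the libraries lie to each other. WT replicates 1 and 2 differed by a biological coefficient of variation (the variation between a pair of libraries beyond counting noise) of 2.79%, whereas every other pair within a genotype differed by 6.62% to 24.5%. Their counts still differed by more than sampling noise, with a chi-square per degree of freedom of 2.54 against 8.4 to 268 in the other pairs, so they were kept as 2 libraries. The labels call both biological replicates but name no animal, and whether they came from 1 animal or RNA sample was not tested. If they did, replicates 1 and 2 of WT would rest on 1 animal. Any WT comparison below nevertheless rests on a pair that varies less than other replicates do. FI3KO replicates 1 and 2 were not alike in this way (14.9%). Pairs taken across the sets differed by 20.3% to 22.7% in WT and 19.7% to 24.5% in FI3KO, and pairs within replicates 3 to 6 by 6.62% to 16.8% and 7.28% to 17.8%. Within FI3KO, replicates 3 and 4 (8.36%) and replicates 5 and 6 (7.28%) were close, with 14.3% to 17.8% between these pairs. By this measure each pair across the sets was farther apart than any pair inside one, in both genotypes. By chi-square per degree of freedom the WT sets were not so divided, since the pair of WT replicates 3 and 5 stood at 127 and pairs across the sets at 74.4 to 130, whereas in FI3KO pairs across the sets stood at 111 to 268 and those inside one at 16.9 to 86.4.

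**Figure D1:**
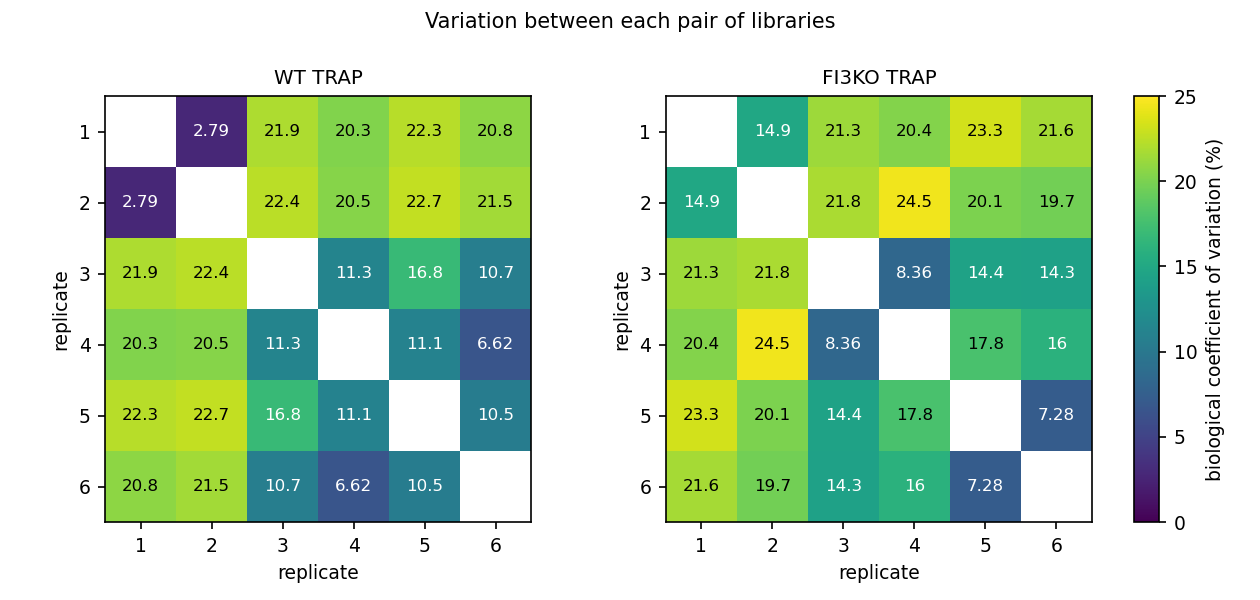
Biological coefficient of variation (percent) between each pair of libraries within WT (left) and FI3KO (right), by replicate number. WT replicates 1 and 2 are the closest pair at 2.79%, and pairs that cross from replicates 1-2 to 3-6 lie at 19.7% to 24.5%.

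On the first principal component of the 1000 most variable genes (40.6% of variance), the libraries did not line up by set. FI3KO replicates 3 to 6 scored from -41.7 to -27.7 and WT replicates 3 to 6 from 34.3 to 38.7, at opposite ends. Between them lay WT replicates 1 and 2, both at 2.6, and FI3KO replicates 1 and 2 at -10.9 and -1.1. On the second component (13.9%), FI3KO replicates 1 and 2 stood apart at 34.9 and 33.6, above all others, which reached at most 11. On the first component the genotypes were therefore farther apart in replicates 3 to 6 than in replicates 1 and 2. Correlations of log2 CPM between WT and FI3KO libraries were 0.954 to 0.963 among replicates 3 to 6 (16 pairs) and 0.974 to 0.979 among replicates 1 and 2 (4 pairs). Across the sets they were 0.975 to 0.981 for WT replicates 1 and 2 with FI3KO replicates 3 to 6 and 0.953 to 0.971 for WT replicates 3 to 6 with FI3KO replicates 1 and 2 (8 pairs each). By correlation, WT replicates 1 and 2 were thus no closer to FI3KO replicates 1 and 2 than to FI3KO replicates 3 to 6.

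**Figure D2:**
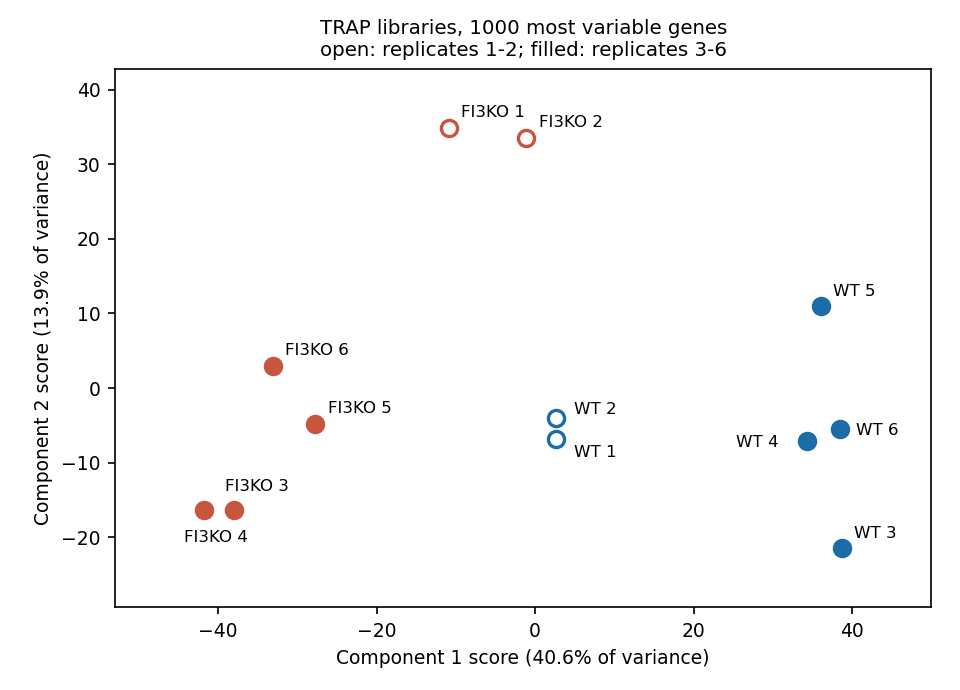
Scores of the 12 TRAP libraries on the first 2 principal components of the 1000 most variable genes, WT in blue and FI3KO in red, replicates 1-2 open and 3-6 filled. Replicates 3-6 of the genotypes lie at opposite ends of component 1, with all 4 libraries of replicates 1-2 between them.

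Gene by gene, few differences were shared by the genotypes. A gene was called where the log2 fold change between the sets was at least 1 in size and no library of one set overlapped the other. Throughout, a positive log2 fold change means a higher level in replicates 3 to 6. Of 14978 genes tested, 5 were called higher over both genotypes (0.0334%) and 33 lower (0.22%). With WT replicates 1 and 2 summed and counted as 1 library these counts were 6 and 72, since fewer libraries must then not overlap. Leaving out FI3KO replicate 2 gave 15 genes higher, and leaving out WT replicate 2 gave 106 lower. Of the 5, 3 reached a mean of 1 on the log2 CPM scale, and of the 33, 5 did, so most shared calls were of genes with few reads. Cish, Dusp1 and the others described next are all those at or above that level.

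Cish and Dusp1 separated the sets in both genotypes on their own, and their start sites are shown because each carries the letters of a well-known signal-response element (capitals; sequences and start sites from RefSeq, GRCm38.p6, read 5′ to 3′ on the gene's strand). For Cish the 26 bases around the start site, chr9:107296656-107296681 on the plus strand, hold TTCNNNGAA, the letters bound by STAT factors, 2 times. For Dusp1 the 250 bases before the start site, chr17:26508473-26508722 on the minus strand, hold TGACGTCA, the cAMP response element.
Cish: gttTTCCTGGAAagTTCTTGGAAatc
Dusp1: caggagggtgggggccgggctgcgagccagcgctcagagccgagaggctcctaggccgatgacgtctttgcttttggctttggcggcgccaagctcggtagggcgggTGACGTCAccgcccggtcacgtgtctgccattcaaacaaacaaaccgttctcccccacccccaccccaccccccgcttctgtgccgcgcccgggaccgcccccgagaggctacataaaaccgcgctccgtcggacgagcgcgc
Both motifs read the same on either strand. Among 32851 promoter windows of 300 bases (250 before to 50 after a start site), TTCNNNGAA occurred at least once in 8.3% and at least 2 times in 0.457%, and TGACGTCA at least once in 1.79%. Of 8 genes called over both genotypes at this level, 5 had such windows (7 in all), of which 1 window held each motif. A match describes the letters and shows no binding.

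Cish, which encodes an SH2 protein that is switched on by STAT5 and dampens growth hormone and cytokine receptors, had the largest log2 fold change of these 8 over both genotypes. In FI3KO it stood at 20.6 and 25.6 CPM in replicates 1 and 2 and at 2.05, 2.03, 2.31 and 2.44 CPM in replicates 3 to 6. In WT it stood at 6.77 and 7.96 CPM and at 0.733, 0.738, 0.723 and 0.699 CPM. Every library of replicates 1 and 2 was above every library of replicates 3 to 6, although WT lay below FI3KO within each set. The log2 fold change was -3.37 (SE 0.094) over both genotypes, -3.34 (SE 0.14) inside WT and -3.39 (SE 0.12) inside FI3KO, so the size of the difference was nearly the same in both.

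Dusp1, an immediate-early phosphatase that switches off MAP kinases, went the other way. WT libraries held 14.5 and 12.3 CPM in replicates 1 and 2 and 49.8, 49.3, 54.5 and 58.5 CPM in replicates 3 to 6. FI3KO libraries held 13 and 17.4 CPM and 50.3, 46.4, 24.1 and 20.4 CPM. The log2 fold change was 1.59 (SE 0.26) over both. Replicates 3 and 4 of FI3KO matched the WT level of their set, while replicates 5 and 6 stood only a little above replicates 1 and 2.

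Dusp6, a phosphatase of ERK, and Hilpda, which coats lipid droplets and restrains the lipase ATGL, differed in both genotypes but past the fold limit in WT alone. For Dusp6, WT levels were 6.7 and 6.65 CPM in replicates 1 and 2 and 27.4, 31.6, 32.1 and 36.3 CPM in the rest, while FI3KO levels were 10.4 and 11.6 CPM and 18, 12.8, 17.2 and 12.1 CPM (log2 fold change 2.25 in WT and 0.45 in FI3KO). Hilpda was higher in replicates 1 and 2, at 18.8 and 21.7 CPM against 6.57, 5.91, 7.64 and 6.48 CPM in WT and at 24 and 21.4 CPM against 14.1, 15.7, 18.4 and 15.8 CPM in FI3KO (log2 fold change -1.61 and -0.50). Lmo1, a LIM-domain transcription cofactor, had log2 fold changes of -1.43 and -0.56. The melanocortin receptor gene Mc5r, chromosome 18, had 1.82 in WT and 0.39 in FI3KO (1.08 over both genotypes), with all 12 libraries at or below 4.29 CPM. The remaining 2 of the 8, both lower in replicates 3 to 6, are transcripts without a gene name in the annotation used (ENSMUST00000239104.1 at -2.6 and ENSMUST00000239262.1 at -1.29).

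**Figure D3:**
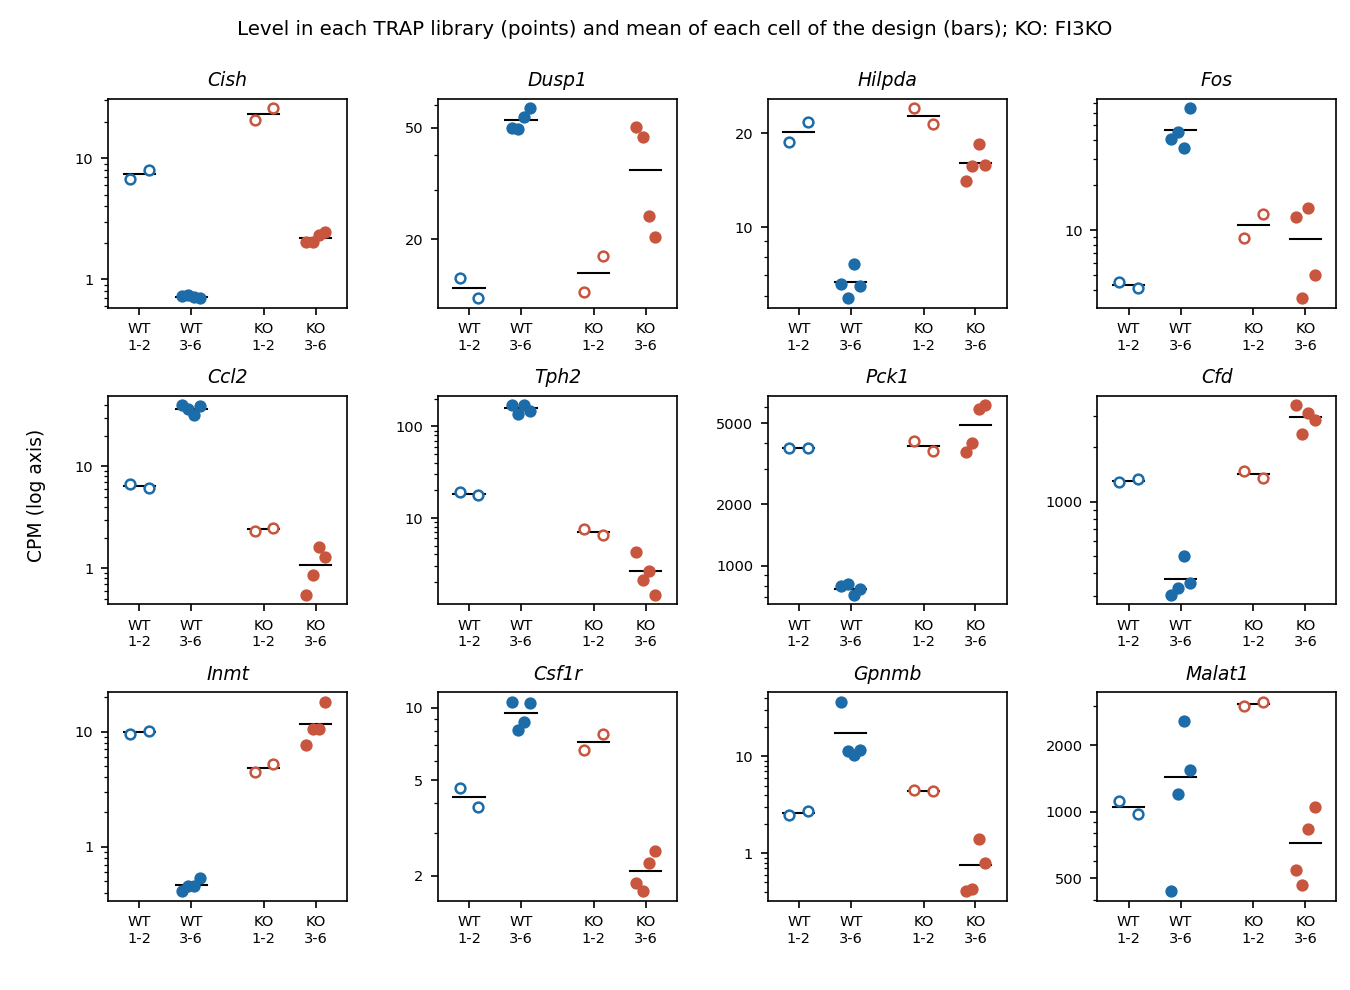
Level in each TRAP library of 12 genes (points; bars are means), in CPM on a log axis, by genotype and set. Cish, Dusp1 and Hilpda separate the sets in the same direction in both genotypes, whereas Inmt, Cfd, Tph2, Ccl2, Csf1r and Gpnmb separate them in opposite directions.

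Socs1 and Socs3, relatives of Cish that also dampen cytokine receptors, were looked at after Cish was seen, together with other genes tied to STAT5 or ERK signalling. Socs3 stood at 3.13 and 2.19 CPM in FI3KO replicates 1 and 2 and at 0.987, 0.645, 0.736 and 0.165 CPM in replicates 3 to 6, but at 2.15 and 1.74 CPM against 2.52, 2.81, 3.46 and 3.43 CPM in WT. Socs1 overlapped between the sets in neither WT (0.804 and 1.15 CPM against 0.323, 0.369, 0.57 and 0.381) nor FI3KO (2.17 and 1.57 CPM against 1.24, 0.799, 1.37 and 0.922). Socs1 was thus lower in replicates 3 to 6 inside each genotype, as Cish was, while Socs3 was lower in FI3KO and higher in WT. Socs2, the other relative looked at, overlapped between the sets in both genotypes (log2 fold change -0.05 in WT and -0.47 in FI3KO, with at most 1.55 CPM in any library). Of the genes tied to STAT5, Stat5a, Stat5b, Ghr, Igf1 and Pim1 were called in neither genotype, and Bcl6, a transcriptional repressor, was higher in WT (1.06) with overlap in FI3KO. Of those tied to ERK, Dusp4, Spry2, Spry4 and Etv5 were called in neither, and Dusp5, a phosphatase of ERK, was higher in WT (2) and lower in FI3KO (-1.21) at 0.875 CPM or less.

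Inside WT the sets differed in many more genes, with 689 called higher in replicates 3 to 6 (4.6% of genes tested) and 380 lower (2.54%). With WT replicates 1 and 2 counted as 1 library they were 841 and 500. Counted with no fold limit, the sets did not overlap for 6975 genes in WT (46.6%), 5618 in FI3KO (37.5%) and 225 over both (1.5%). The genes higher in WT replicates 3 to 6 included Fos, Fosb and Cxcl1, and those lower included Inmt, Rasd1 and Pck1.

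Fos, the AP-1 subunit induced within minutes of a stimulus, had the largest positive log2 fold change among WT calls whose mean log2 CPM was 1 or more, a limit kept for the genes that follow, at 4.49 and 4.11 CPM in replicates 1 and 2 and 40.8, 45.3, 35.4 and 64.8 CPM in replicates 3 to 6 (log2 fold change 3.44, SE 0.52). The same gene did not separate the sets in FI3KO, where it stood at 8.86 and 12.8 CPM and at 12.2, 3.5, 14.1 and 5.04 CPM. Tph2, the serotonin-synthesis enzyme best known from neurons, was at 19.3 and 17.7 CPM in WT replicates 1 and 2 and at 171, 137, 170 and 149 CPM in replicates 3 to 6 (log2 fold change 3.09, SE 0.25). FI3KO libraries stood in the reverse order, with 7.6 and 6.49 CPM in replicates 1 and 2 and 4.28, 2.09, 2.64 and 1.45 CPM in the rest. Fosb (log2 fold change 3.34), the collagen VI gene Col6a5 (3.33) and the neutrophil chemokine gene Cxcl1 (3.08) complete the 5 largest.

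Among genes lower in WT replicates 3 to 6, Inmt, an indolethylamine N-methyltransferase, had the largest difference, from 9.55 and 10.1 CPM to 0.41, 0.454, 0.456 and 0.54 CPM (log2 fold change -4.39, SE 0.30). Its order was turned in FI3KO, from 4.43 and 5.21 CPM to 7.57, 10.5, 10.5 and 18.2 CPM (1.28). Rasd1, a Ras-like gene induced by glucocorticoids, was at 150 and 152 CPM in WT replicates 1 and 2 and at 21.5, 16.9, 18.2 and 15.6 CPM in replicates 3 to 6 (-3.06, SE 0.25), while FI3KO libraries overlapped at 85 and 103 CPM against 55.7, 59.9, 105 and 118 CPM. Sox7, an endothelial transcription factor, had a log2 fold change of -2.44 in WT.

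Inside FI3KO the imbalance ran the other way, with 83 genes higher in replicates 3 to 6 (0.554%) and 1539 lower (10.3%). Leaving out FI3KO replicate 2 gave 304 genes higher and leaving out FI3KO replicate 1 gave 186, as fewer libraries must then not overlap. The named gene among the 5 largest was Cyp2f2, a cytochrome P450, at 0.627 and 1.51 CPM in replicates 1 and 2 and 6.21, 3.84, 2.79 and 2.07 CPM in replicates 3 to 6 (log2 fold change 1.77). In WT it had -1.17. For ENSMUST00000238818.1 and ENSMUST00000239062.1, transcripts with no gene name in the annotation, FI3KO replicates 1 and 2 held 0 reads while replicates 3 to 6 held 172 to 748 and 274 to 380 reads, at least 108-fold and 91.7-fold higher against a floor of 3 reads per library. Both are uncertain as set differences. In WT the former held 0 and 457 reads in replicates 1 and 2 and 0, 264, 248 and 0 in replicates 3 to 6, so it differed widely even between the closest pair of libraries, and the latter held 247 and 85 reads against 83, 276, 99 and 309. Gm38182 on chromosome 18 (log2 fold change 4.96) and ENSMUST00000239016.1 (2.46) are the others.

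Of the 5 genes with the most negative values inside FI3KO, Cish and ENSMUST00000239104.1 are described above. Tmem119, a membrane protein gene, was at 5.72 and 4.59 CPM in replicates 1 and 2 and at 0.329, 0.369, 0.609 and 0.691 CPM in replicates 3 to 6 (log2 fold change -3.34, SE 0.25), and in WT at 5.06 and 5.88 CPM against 9.79, 7.7, 10.9 and 7.75 CPM. Hist2h2aa2 is uncertain, because its reads can be shared with the near-identical Hist2h2aa1. Their sum was 102 and 129 CPM in FI3KO replicates 1 and 2 and 130, 134, 141 and 141 CPM in the rest, so the sum was not lower in replicates 3 to 6. Gm20388 rested on a single library, with 166 CPM in FI3KO replicate 1 against 7.6 CPM in replicate 2 and at most 5.27 CPM in replicates 3 to 6.

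The genotypes thus differed in which genes separated the sets and often in the direction. Of the 689 genes called higher in WT replicates 3 to 6, 312 were called lower in FI3KO replicates 3 to 6 (45.3% of the WT calls and 20.3% of the FI3KO calls), and 4 were higher in both. Of the 380 lower in WT, 22 were higher in FI3KO (5.79% and 26.5%) and 33 were lower in both, of which 17 are also among the 33 called over both genotypes together. In all, 334 genes were called in opposite directions and 37 in the same. Across the 11045 genes whose mean log2 CPM was 1 or more, the correlation between the WT and the FI3KO log2 fold changes was -0.32. The contrasts share no library, but genes are not independent of each other and the value is a description. For 3259 genes FI3KO replicates 3 to 6 all lay below WT replicates 3 to 6, and in 492 of them (15.1%) all 4 libraries of replicates 1 and 2 lay between. For 3445 genes the order was reversed, with 480 (13.9%) holding all 4 between.

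**Figure D4:**
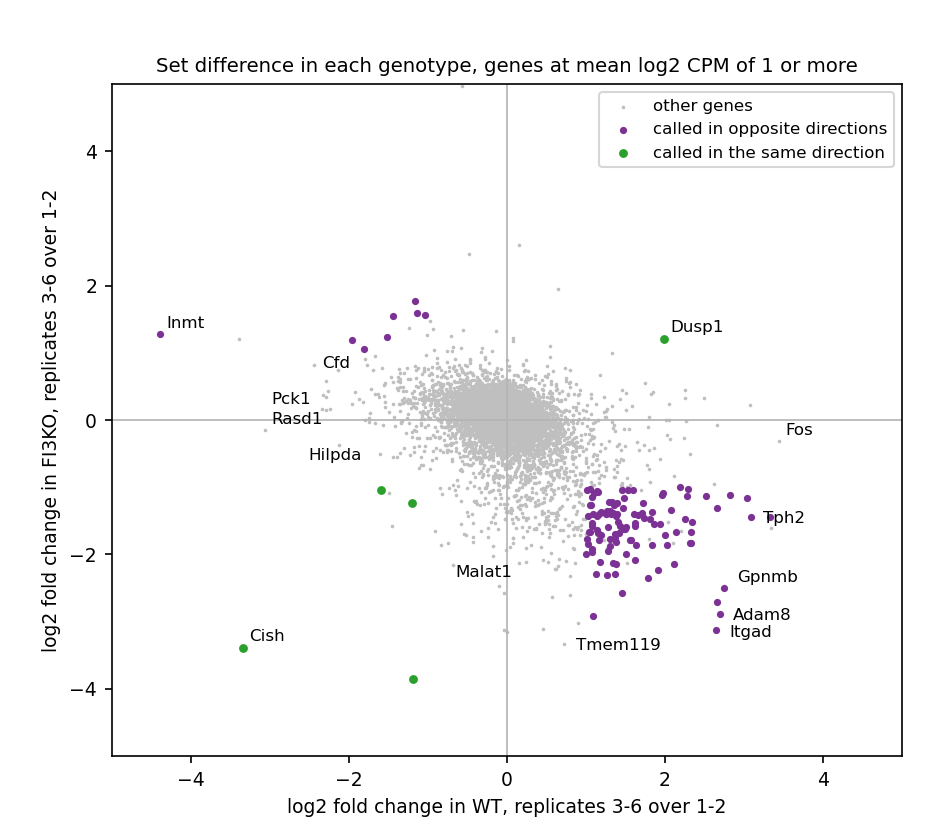
Log2 fold change between the sets (replicates 3-6 over 1-2) inside WT and inside FI3KO for 11029 genes whose mean log2 CPM was 1 or more; 16 more lie beyond the axes. Of the called genes, 115 have opposite directions (purple) and 5 the same (green).

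Genes were also ordered by the set difference in FI3KO minus that in WT. Furthest below 0 were the uncertain Hist2h2aa2, then Gm20388 (-5.85), which rested on a single library, and Itgad, Adam8 and Rgs1. Itgad, an integrin subunit of macrophages, went from 3.42 and 2.46 CPM to 26.2, 16.6, 14.1 and 16.6 CPM in WT and from 3.17 and 6.65 CPM to 0.0731, 0.154, 1.14 and 0.757 CPM in FI3KO. The difference between these log2 fold changes (FI3KO minus WT) was -5.78. It was -5.58 for Adam8, a surface protease of leukocytes, and -5.37 for Rgs1, a regulator of chemokine receptor signalling. In the other direction stood the transcripts with 0 reads in FI3KO replicates 1 and 2, whose fitted values are no bound, then Inmt with 5.67 and Gm38182 with 5.53. Over all genes, 1719 met the limit with a lower value in FI3KO (11.5%) and 334 with a higher one (2.23%).

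Gene lists were used to ask which cell types and which adipocyte states separate the sets. Beside each count stands the median log2 fold change of the list, to be read against a median of 0.00 in WT and 0.01 in FI3KO over all genes tested. The shares of all genes called were 4.6% higher and 2.54% lower in WT, and 0.554% higher and 10.3% lower in FI3KO. In such bulk libraries, fewer cells of a type, less RNA per cell and less carry-over into the pulldown cannot be told apart.

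Macrophage genes separated the sets in opposite directions. Of 16 tested pan-macrophage genes, 13 were called higher in WT replicates 3 to 6 (median 1.27), while 9 were lower in FI3KO replicates 3 to 6 and 1, Cd14, was higher (median -1.28). Tyrobp held 31, 17, 9 and 23 reads in WT replicates 3 to 6 and at most 9 in any other library. It passed the low-count filter only through those libraries, and Cd68 also needed them to pass. The filter thus favoured their calls as higher in WT. Csf1r, the receptor that macrophages need to survive, was at 4.63 and 3.85 CPM in WT replicates 1 and 2 and at 10.6, 8.09, 8.71 and 10.5 CPM in replicates 3 to 6, and in FI3KO at 6.64 and 7.76 CPM against 1.86, 1.72, 2.26 and 2.53 CPM. Summed over the list, WT stood at 30.9 and 29.4 CPM against 91, 55.6, 58.3 and 69.3 CPM, and FI3KO at 28.8 and 37.7 CPM against 13.7, 13.1, 16.6 and 14.9 CPM. The genotypes were therefore close in replicates 1 and 2 and apart in replicates 3 to 6.

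Macrophage subtypes were described in the same way. Mrc1, the mannose receptor of resident macrophages, was at 5.06 and 4.84 CPM against 10.6, 10.2, 10.5 and 13 CPM in WT and at 6.27 and 7.47 CPM against 2.12, 1.87, 2.18 and 2.4 CPM in FI3KO. In its list, 3 of 7 genes were higher in WT (median 0.87) and 5 lower in FI3KO (median -1.39). Folr2, among those higher in WT, needed WT replicates 3 to 6 to pass the low-count filter, which favoured that call. Of 9 genes of lipid-associated macrophages, the cells that ring dying adipocytes in obesity, 5 were higher in WT (median 1.78) and 5 lower in FI3KO (median -1.36). Gpnmb among them stood at 2.48 and 2.75 CPM against 37.0, 11.5, 10.4 and 11.7 CPM in WT and at 4.47 and 4.42 CPM against 0.402, 0.43, 1.4 and 0.79 CPM in FI3KO. For Trem2, a lipid-sensing receptor of these cells, the differences were 2.41 and -2.48. Of 12 genes of antigen presentation by MHC class II and of dendritic cells, 1 was higher in WT (H2-DMb1, 17.8 and 16.7 CPM against 56.8, 38.6, 40.1 and 41.2 CPM; median of the list 0.52) and 5 lower in FI3KO (median -0.93).

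Endothelial genes separated the sets in FI3KO. Of 16 tested, 15 were lower in FI3KO replicates 3 to 6 (median -1.40) and none was called in WT (median -0.24). Ptprb, a phosphatase of vascular endothelium, was at 25.1 and 43.7 CPM in FI3KO replicates 1 and 2 and at 12.3, 9.49, 14.1 and 14.7 CPM in replicates 3 to 6, whereas WT overlapped at 14.6 and 17.8 CPM against 10.7, 12.2, 18.6 and 16.3 CPM. Summed, the list stood at 139 and 222 CPM in FI3KO replicates 1 and 2, against 49.8 to 78 CPM in FI3KO replicates 3 to 6 and 54.4 to 102 CPM in all WT libraries. The 2 FI3KO libraries thus stood out, and they also held the most Malat1 and rRNA-like reads, as given further on.

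Genes of mural and stromal cells were called mostly in FI3KO. Of 12 genes of pericytes and smooth muscle, 7 were lower in FI3KO (median -1.55) and 2 higher in WT (0.48). Notch3, which pericytes need to mature, was at 13.9 and 17.7 CPM against 2.12, 2.3, 3.4 and 4.84 CPM in FI3KO, and overlapped in WT at 3.18 and 4.86 CPM against 3.93, 5.11, 11.3 and 7.94 CPM. Of 18 genes of fibroblasts and adipose progenitors, 9 were lower in FI3KO (median -0.99), and 4 were higher and 1 lower in WT (0.52). Fn1, fibronectin, held 44.7 and 43.4 CPM against 73.8, 80.9, 104 and 114 CPM in WT and 22 and 51.7 CPM against 9.61, 7.96, 17.4 and 14.1 CPM in FI3KO. Of 14 mesothelial genes, 1 was higher in WT (median 1.25) and none was called in FI3KO (-0.61). Of 5 erythroid genes, 4, all globins, were lower in FI3KO (median -1.11) and none was called in WT (0.59).

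Matrix genes were called higher in WT or lower in FI3KO. Of 29 tested collagens, 5 were higher in WT (median 0.35) and 13 lower in FI3KO (-0.68), and the same 5 were called in both. Col1a1, the chain of type I collagen, was at 511 and 508 CPM against 948, 1460, 1320 and 1150 CPM in WT and at 532 and 414 CPM against 242, 242, 117 and 116 CPM in FI3KO. Of 14 matrix remodelling genes, 6 were higher in WT (median 0.86) and 7 lower in FI3KO (-1.09), with 5 in both, among them Timp1, the inhibitor of metalloproteases (2.29 and -1.84), and Postn, periostin (1.37 and -1.70).

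Measures of other RNA moved with FI3KO replicates 1 and 2. Each of 6 tested nuclear noncoding RNAs was lower in FI3KO replicates 3 to 6 (median -1.86) and none was called in WT (0.69). Malat1, which stays in the nucleus, was at 3000 and 3150 CPM in FI3KO replicates 1 and 2, against 547, 466, 834 and 1050 CPM in replicates 3 to 6, and at 1120 and 979 CPM against 436, 1200, 2570 and 1540 CPM in WT. Gm26917 and Gm42418, which carry rRNA-like sequence, took 9.62% and 6.69% of reads in FI3KO replicates 1 and 2 and 0.45% to 4.77% in the 10 other libraries. Protein-coding genes took 88.75% and 91.56%, against 93.63% to 98.31%. Together the 20 epididymal genes held 49 and 75 reads in FI3KO replicates 1 and 2 and 2 to 10 reads in the others. Crisp1, a secreted protein of the epididymal epithelium, had 20 and 32 reads there and 0 reads in the 10 other libraries, at least 10-fold more than a floor of 3 reads per library within FI3KO. Of this list 3 genes (Crisp1, Ces5a and Adam7) passed the low-count filter, which they did only through FI3KO replicates 1 and 2, so that their calls there were fixed by the filter. No testis gene passed it. The part of these RNAs in the FI3KO differences was not tested.

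Most adipocyte identity genes were called in neither genotype. Of 23 tested adipocyte identity genes, 3 were lower in WT replicates 3 to 6 (Cfd, Nnat and Adrb3; median -0.40) and 1, Cfd, was higher in FI3KO (0.15). Cfd, the secreted serine protease adipsin, stood at 1280 and 1330 CPM in WT replicates 1 and 2 against 303, 329, 501 and 352 CPM in replicates 3 to 6, and at 1480 and 1350 CPM against 3440, 2360, 3110 and 2830 CPM in FI3KO. Its level in replicates 1 and 2 was thus much the same in both genotypes. Adrb3, the adipocyte receptor for noradrenaline, was at 449 and 437 CPM against 154, 189, 233 and 179 CPM in WT, with overlap in FI3KO (849 and 674 CPM against 778, 812, 1010 and 1070 CPM). Pparg, the master regulator of adipocytes, had 0.06 and 0.42, and the lipid droplet coat gene Plin1 had -0.13 and 0.35. Summed, the list was at 71700 and 72600 CPM against 51200 to 56700 CPM in WT and at 61000 and 63600 CPM against 68700 to 77400 CPM in FI3KO.

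Leptin, which rises with adipocyte size, was compared in the same way. Lep was at 6770 and 6710 CPM against 12700, 10300, 8600 and 11200 CPM in WT and at 3330 and 3980 CPM against 3030, 2830, 2520 and 2470 CPM in FI3KO (0.67 and -0.43). Neither difference reached the fold limit, though in both genotypes the sets did not overlap. None of the 5 genes of adipose expansion was called (medians -0.55 and -0.43).

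**Figure D5:**
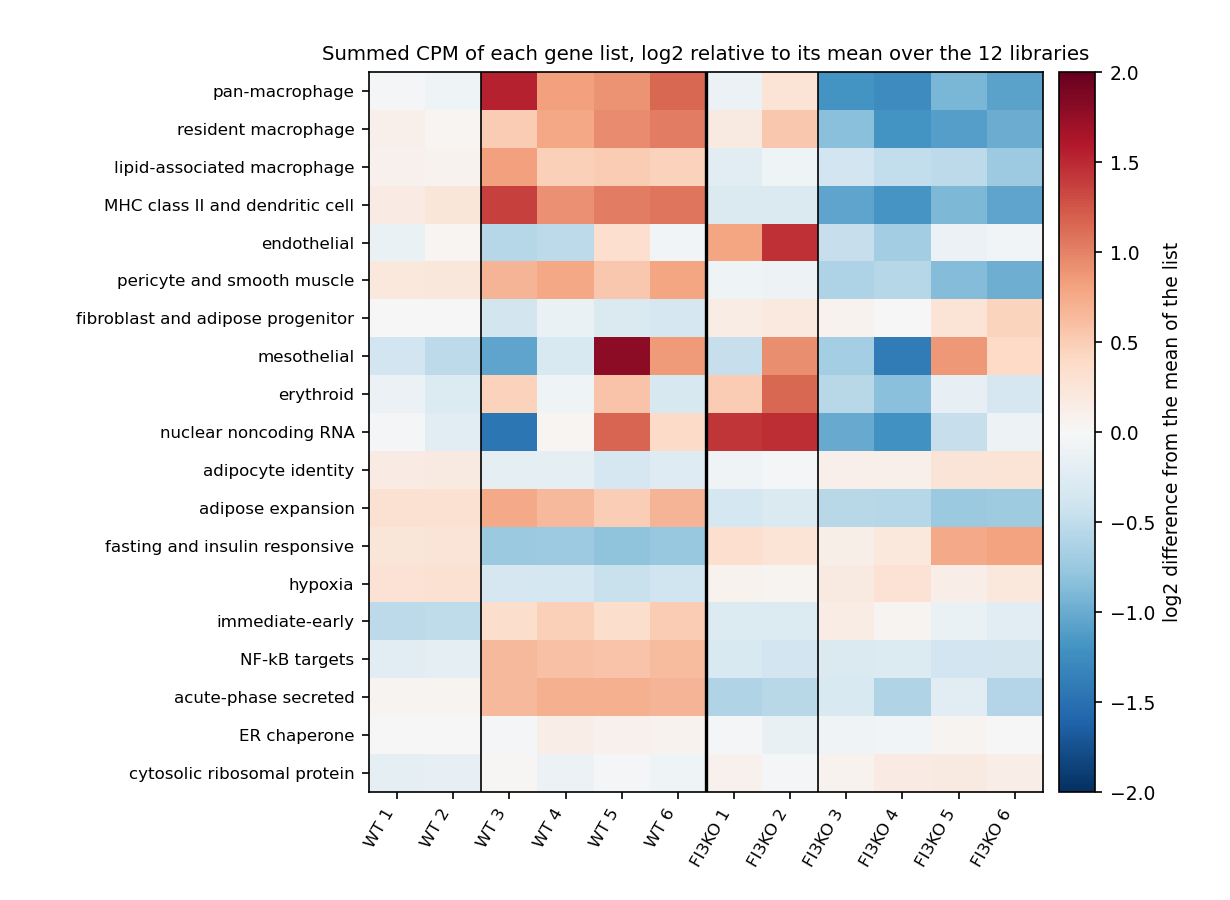
Summed CPM of 19 gene lists in each TRAP library, as the log2 difference from the mean of the list over the 12 libraries (red higher, blue lower). Macrophage lists are high in WT 3-6 and low in FI3KO 3-6; endothelial genes and nuclear noncoding RNA are highest in FI3KO 1 and 2.

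Immediate-early genes, which respond to handling, stress and growth factors, were called higher in WT replicates 3 to 6 for 14 of 28 (median 0.98) and higher in FI3KO for 2, lower for 6 (-0.21). Dusp1 alone was higher in both, and 4 were higher in WT and lower in FI3KO. Ccn1, a matrix protein of this class, was at 47.9 and 50.2 CPM against 269, 292, 233 and 315 CPM in WT and overlapped in FI3KO (69.1 and 72.5 CPM against 72.9, 48.4, 135 and 97.8 CPM). Jun did the reverse, with 55.9 and 53.1 CPM against 51.1, 58.4, 60.5 and 59.1 CPM in WT and 40.1 and 46.9 CPM against 109, 106, 92.5 and 96.1 CPM in FI3KO. Members of the class thus differed in which genotype separated the sets, and some in direction.

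Some inflammatory genes were called higher in WT replicates 3 to 6. Of 16 NF-kB targets, 7 were called higher in WT (median 0.78) and 4 lower in FI3KO (-0.09). Ccl2, the chemokine that draws monocytes into fat, was at 6.77 and 6.06 CPM against 39.9, 36.6, 32.2 and 38.7 CPM in WT and at 2.34 and 2.49 CPM against 0.548, 0.86, 1.6 and 1.28 CPM in FI3KO. Of 13 acute-phase genes, 6 were higher in WT (median 0.90), Lcn2 (2.66) and Saa3 (2.24) among them, and 2 were lower in FI3KO (-0.27). In the same libraries 13 of 16 pan-macrophage genes were called higher in WT and 9 lower in FI3KO, as given above. The part of macrophage RNA in these inflammatory differences was not tested. Of 23 interferon-stimulated genes, 1 was called lower in WT (Ifit1, -1.17) and none in FI3KO (medians -0.01 and 0.18). That none was called higher in WT is near the 4.6% of all genes, given the size of the list. The summed list was lower in WT replicates 3 to 6 (542 to 618 CPM against 719 and 726 CPM). It was higher in FI3KO replicates 3 to 6 (928 to 1280 CPM against 870 and 721 CPM).

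Of 8 genes that respond to fasting and insulin, 1 was called higher and 2 lower in WT (median -0.09) and none was called in FI3KO (0.11). Pck1, the enzyme of glyceroneogenesis that insulin turns down, stood at 3770 and 3790 CPM in WT replicates 1 and 2 and at 796, 811, 721 and 767 CPM in replicates 3 to 6 (log2 fold change -2.29), while in FI3KO the sets overlapped at 4100 and 3670 CPM against 3600, 4010, 5840 and 6140 CPM. Irs2, an insulin receptor substrate that insulin also turns down, had -1.06 in WT and 0.23 in FI3KO. Sgk1, a kinase induced by glucocorticoids and insulin, was higher, at 4.59 and 4.3 CPM against 20.1, 21.5, 21.2 and 21.8 CPM in WT. Angptl4, a fasting-induced inhibitor of lipoprotein lipase, had 0.38 and -0.44, and Txnip, which restrains glucose uptake, -0.12 and 0.00. Of 12 hypoxia genes, Vegfa (-1.13), Ndrg1 (-1.96) and Ddit4 (-2.12) were lower and Adm (2.52) higher in WT, and none was called in FI3KO (medians -0.10 in both).

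Many lists of basic cell functions held no call. No gene was called in either genotype among the 80 tested cytosolic ribosomal protein genes, the 78 mitochondrial ribosomal protein genes, the 76 nuclear genes of the respiratory chain, the 13 genes of the mitochondrial genome, 22 of cholesterol synthesis, 12 of glycolysis, 15 of fatty acid oxidation, 18 of the lysosome, 13 of heat shock or 16 ER chaperones. The medians of these lists ran from -0.23 to 0.39 in WT and from -0.32 to 0.14 in FI3KO. Some lists leaned to one side without a call. Of the 76 respiratory chain genes, 72 were below 0 in WT (median -0.23) and 26 in FI3KO (0.07). Of the 22 cholesterol synthesis genes, 20 were above 0 in WT (median 0.39) and 8 in FI3KO (-0.09). Of 27 cell cycle genes, 4 were higher in WT (median 0.38) and 3 lower in FI3KO (0.00), the latter 11.1% against 10.3% of all genes. Of 42 replication-dependent histone genes, whose near-identical copies can share reads, 4 were higher and 2 lower in WT (-0.03) and 2 higher and 2 lower in FI3KO (0.25). Of 16 circadian clock genes, Per3, a repressor of the clock, was lower in WT replicates 3 to 6 (-1.08) and Dbp, a clock output factor, higher in FI3KO replicates 3 to 6 (1.07), with medians of -0.20 and 0.32. Among the 46 lists with at least 3 tested genes, 10 had a median of at least 0.5 in WT and at most -0.5 in FI3KO, and 20 had both medians within 0.3 of 0.

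The cultured adipocytes, which were not used for the split, gave an outside view of the called genes. They are no pure adipocyte reference, since macrophage and stromal genes were abundant in them, with means of 139 CPM for Csf1r, 334 CPM for Mrc1 and 6610 CPM for Col1a1. Of all genes tested, 11.5% had a mean under 1 CPM in the 6 cultured libraries. This share was 22.9% for genes higher in WT replicates 3 to 6, 41.8% for those lower in WT, 43.4% for those higher and 24% for those lower in FI3KO replicates 3 to 6, and 60.6% (20 of 33) for those lower over both genotypes. Called genes also had fewer reads in the TRAP libraries, with a median mean log2 CPM of -0.06, 0.80, -0.66 and -0.54 in those first 4 groups against 3.73 over all genes. Median GC content was 50.2%, 51.7%, 47.6% and 50.7% against 50.1%, and the median length was 2840, 2605, 2121 and 2908 nt against 2716 nt. Protein-coding genes made up 89.7%, 73.9%, 61.4% and 71.7% against 88.8%.

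Measures of the libraries that do not come from gene levels overlapped between the sets over both genotypes, though fragment length did not inside WT. Total reads averaged 31090000 ± 5220000 (SD, n = 4) in replicates 1 and 2 and 31780000 ± 4600000 (SD, n = 8) in replicates 3 to 6, with p = 0.831 in a two-sided exact permutation test within genotype (225 arrangements, smallest possible p 0.0044; adjusted p = 0.831 over 2 measures). The mean fragment length implied by effective transcript lengths was 173.8 ± 4.35 nt (SD, n = 4) in replicates 1 and 2 and 175.8 ± 8.07 nt (SD, n = 8) in replicates 3 to 6. That difference was smaller than the spread between libraries, with p = 0.658 in the same exact permutation test (adjusted p = 0.831). The test averages the difference over both genotypes, so differences in opposite directions cancel and it cannot show them. Inside WT it was 172 and 170 nt in replicates 1 and 2 and 179, 180, 174 and 188 nt in replicates 3 to 6, and inside FI3KO 173 and 180 nt against 179, 160, 173 and 173 nt. With an offset for the effective transcript length of each library, which depends on fragment length, 676 genes were called higher and 396 lower inside WT, beside 689 and 380 without it.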

How the data were processed

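TRAP RNA from 12 eWAT samples and RNA from 6 cultured adipocyte samples had been depleted of rRNA and sequenced by the authors. Per the labels and the study's methods, reads were trimmed with fastp and quantified with Salmon (version 1.4.0; build GRCm38 in the submitters' processing notes). The deposited tables give, for 118733 transcripts, estimated counts (expected counts, neither normalized nor whole), TPM and effective lengths in nucleotides, another unit the authors' Salmon run wrote. All comparisons rest on the estimated counts. TPM deposited by the authors and effective lengths served only the alternative with a length offset, and effective lengths also the implied mean fragment length.

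Transcripts were summed to genes with GENCODE M21, which matched 117850 transcripts (99.3%). Each of the remaining 883 stood as its own gene. The study's methods name a later GENCODE release, and whether that release gives these transcripts a gene name was not tested. Sums over the resulting 33440 genes were rounded. Transcripts of near-identical genes can share reads in such estimates. In R 4.3.3, edgeR 4.0.16 was used (filterByExpr, TMM, quasi-likelihood fit) with genotype and set, or with the 4 cells of genotype by set. A gene was called at a log2 fold change of 1 or more in either direction with no overlap of libraries, and no p-value is given for these contrasts, since the split was chosen on these libraries. Genes named are the 12 with the largest difference in each direction over both genotypes, the 5 inside each genotype and in the difference between genotypes (mean log2 CPM of at least 1), and in each list the 3 highest and the 3 most changed; others were chosen after their values were seen, Irf3 apart. One gene that this rule names is not reported here. Lists were written from general knowledge. The members and lists were chosen with earlier results of these data known. A floor of 3 reads per library was used where a set had 0 reads, and covers counting error only. Permutation tests were run in Python 3.11.15 with scipy 1.17.1. Alternatives were DESeq2 1.42.0 size factors and Wald fit, other low-count filters, a length offset, removal of mitochondrial and rRNA genes, thinning to the smallest library, other call rules, the replicate number as a block (limma 3.58.1), and leaving out or summing libraries. The fits were tested on simulated data.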

Additional observations from a re-analysis of the deposited data

Results flagged for a closer look

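Some lists and genes had 1 library far from the other 3 of its set. In WT replicates 3 to 6, Gpnmb was at 37.0 CPM in replicate 3 against 10.4 to 11.7 CPM in the others (gap over range 0.953), H2-DMb1 at 56.8 CPM in replicate 3 against 38.6 to 41.2 CPM (0.854), Timp1 at 5.25 CPM in replicate 3 against 3.11 to 3.38 CPM (0.875), Gm38182 at 4.99 CPM in replicate 6 against 3.64 to 3.78 CPM (0.891), the rRNA-like Gm42418 at 8790 CPM in replicate 5 against 312 to 1420 CPM (0.869) and Mrc1 at 13 CPM in replicate 6 against 10.2 to 10.6 CPM (0.84). The summed level of the lipid-associated macrophage list was 336 CPM in WT replicate 3 against 264 to 273 CPM (0.875), and that of the cell cycle list 108 CPM in WT replicate 5 against 115 to 116 CPM (0.875). In FI3KO, Dusp5 was at 0 CPM in replicate 4 against 0.219 to 0.23 CPM (0.952), Sgk1 at 12.1 CPM in replicate 6 against 9.82 to 10.1 CPM (0.89), the lipogenesis list was at 78200 CPM in replicate 6 against 87200 to 88500 CPM (0.874) and the thermogenic list at 125 CPM in replicate 4 against 134 to 135 CPM (0.90). These are 12 of 270 groups of 4 libraries looked at, where chance at 1 in 20 gives 13.5.

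Genes whose libraries did not overlap between the sets in either genotype, with WT and FI3KO in opposite directions, are flagged as well, and this difference between genotypes was not tested. In all 334 genes were called in opposite directions, past the fold limit in both genotypes. Of the genes with values in the text, 28 were without overlap in opposite directions, with or without the fold limit, and the log2 fold change in FI3KO minus that in WT was -4.53 for Tph2, -4.77 for Col6a5, 5.67 for Inmt, 2.87 for Cfd, 2.94 for Cyp2f2, -5.78 for Itgad, -5.58 for Adam8, -5.37 for Rgs1, -2.94 for Csf1r, -2.84 for Mrc1, -5.25 for Gpnmb, -4.89 for Trem2, -2.62 for H2-DMb1, -2.66 for Col1a1, -2.67 for Fn1, -3.66 for Ccl2, -4.06 for Tmem119, -4.13 for Timp1, -3.07 for Postn, -2.72 for Socs3, -1.09 for Lep, 1.52 for Nnat, 1.5 for Nnt, 1.45 for Cd14, 1.38 for Dbp, 1.02 for Igf1, -3.21 for Dusp5 and 0.48 for Plin1.

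By summed CPM, 14 of 46 lists did the same. The log2 ratio of set means in FI3KO minus that in WT was -2.37 for pan-macrophage, -2.16 for resident macrophage, -0.86 for lipid-associated macrophage, -1.65 for MHC class II and dendritic cell, -2.36 for lymphatic endothelial, -1.14 for pericyte and smooth muscle and -0.66 for collagen genes. It was 0.64 for adipocyte identity, -0.66 for adipose expansion, -0.31 for cholesterol synthesis, 0.82 for hypoxia, 0.82 for interferon-stimulated, 0.50 for circadian clock and 0.27 for replication-dependent histone genes. A summed level is set mostly by the most abundant genes of a list.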

How the results depend on the processing

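The calls are counts of genes past a fold limit without overlap, so they move with the low-count filter and with the number of libraries. Genes higher and lower over both genotypes (5 and 33) became 3 and 13 with a minimum of 10 reads in every library and 127 and 98 without a fold limit. They became 1 and 16 with an adjusted p of at most 0.05 in edgeR's quasi-likelihood fit in place of no overlap. That is another rule of description, since the split was chosen on these libraries. With neighbouring pairs summed they became 24 and 151. These pairs were WT replicates 1 and 2 and FI3KO replicates 1 and 2, 3 and 4, and 5 and 6. They were chosen after seeing the data, and WT replicates 4 and 6 (6.62%) were not summed though closer than the FI3KO pairs. Genes lower over both genotypes became 55 without a filter and 72 with WT replicates 1 and 2 summed. Those higher and lower inside WT (689 and 380) became 1054 and 739 without a filter, 269 and 202 with the minimum, 3342 and 3633 without a fold limit and, for those higher, 395 by that adjusted p. Inside FI3KO, 83 and 1539 became 190 and 2687 without a filter, 20 and 551 with the minimum and 34 and 836 by that adjusted p. They became 2802 and 2816 without a fold limit and 257 and 2496 with those neighbouring pairs summed. The difference between genotypes (334 higher and 1719 lower in FI3KO) became 678 and 2982 without a filter, 170 and 631 with the minimum, 4708 and 4589 without a fold limit and, for those lower, 2606 with those neighbouring pairs summed.

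Leaving out single libraries gave 5 to 15 genes higher and 34 to 106 lower over both genotypes, 667 to 989 and 377 to 588 inside WT, 79 to 304 and 1477 to 2251 inside FI3KO, and 324 to 523 and 1604 to 2326 for the difference. The libraries that moved a count by over 1.5 times were WT replicate 2 (106 lower over both, 588 lower in WT), WT replicate 1 (9 higher and 80 lower over both), WT replicate 5 (51 lower over both), FI3KO replicate 3 (8 higher over both), FI3KO replicate 2 (15 higher over both, 304 higher in FI3KO, 523 for the difference) and FI3KO replicate 1 (13 and 59 over both, 186 higher in FI3KO). Size factors of DESeq2, its Wald fit, thinning and removal of mitochondrial and rRNA genes moved no such count by over 1.5 times.

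Samples with the same replicate number did not deviate together (correlation -0.25 to 0.13, none of 6 numbers best with its own), so the numbers were not taken as pairs. With the number as a random block 6 genes were higher and 31 lower over both genotypes, and with a fixed block 329 and 1722 for the difference. Without the genotype term the counts were 7 and 31. Of 17515 values of named genes under alternatives, 16814 stayed within the spread, 700 moved and 1 was reversed (Csf3r inside FI3KO, 0.03 with the length offset against -1.15; the cause was not tested). The shares of called genes low in cultured adipocytes at 0.1 and 5 CPM were 8.13% and 47.2% (higher in WT), 12.6% and 66.1% (lower in WT), 8.43% and 71.1% (higher in FI3KO) and 6.89% and 60.1% (lower in FI3KO). The first component took 36.7% of variance with 500 genes and 40.9% with 5000. With WT replicates 1 and 2 averaged, the permutation p was 0.76 for total reads and 0.747 for fragment length. Genes under about 1 CPM rest on few reads a library, which limits their fold changes.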

Other observations

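Nnt, the mitochondrial transhydrogenase gene that some C57BL/6 substrains carry in a deleted form, was looked at after its values were seen. It held 46.1 and 48 CPM in WT replicates 1 and 2, 24.2, 21.9, 20 and 21.7 CPM in WT replicates 3 to 6, 59.4 and 58.8 CPM in FI3KO replicates 1 and 2 and 72.2, 75.7, 86 and 78.3 CPM in FI3KO replicates 3 to 6. Reads were therefore present in all 12 libraries, and the sets did not overlap inside either genotype. The annotation gives this symbol to 2 gene identifiers. These values are of ENSMUSG00000116207, and the other, ENSMUSG00000025453, held at most 8.66 CPM, so reads can be shared between them.

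Bhlhe40, a transcriptional repressor of the clock that is also induced by hypoxia, split replicates 3 to 6 of FI3KO. It was at 52 and 50.2 CPM in replicates 3 and 4 and at 6.75 and 5.96 CPM in replicates 5 and 6, beside 6.73 and 8.09 CPM in replicates 1 and 2. In WT it ranged from 12.1 to 21.7 CPM. Dusp1 divided FI3KO replicates 3 and 4 from 5 and 6 as well, with the values given above.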
